A study of Saccharomyces cerevisiae with 18 samples.

Results

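The 10 subunit genes of the Rpd3 histone deacetylase complexes of Saccharomyces cerevisiae were followed across wild type and 7 mutants of RPD3 and of the histone tails. The genes were RPD3, SIN3, UME1, SAP30, SDS3, PHO23, DEP1, UME6, RCO1 and EAF3, and they made up 10 of the 5656 genes that the array read singly. They were chosen by gene symbol, and each was read by 1 probe set annotated to that symbol alone. Total RNA of whole cultures had been hybridised to 18 one-colour Affymetrix YG_S98 arrays. Signals were intensities in arbitrary units. They depend on the probes, so they were compared between arrays and not between genes.

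The 8 groups were 1 strain each. Wild type had 3 arrays, and the strain labelled rpd3 deletion had 2. A strain labelled H3delta(1-28), called here the H3 tail deletion, had 2, and one labelled H3(K4,9,14,18,23,27Q), the H3 lysine substitution, had 3. The strain labelled H4delta(2-26), here the H4 tail deletion, had 2, and H4(K5,8,12,16Q), the H4 lysine substitution, also had 2. The number ranges give the deleted residues of the histone, and Q stands for glutamine in place of the numbered lysines, a change often used to mimic an acetylated lysine. The H3 double mutant carried both the RPD3 deletion and the H3 tail deletion (2 arrays), and the H4 double mutant carried the RPD3 deletion and the H4 lysine substitution (2 arrays). No double mutant with the H3 lysine substitution or the H4 tail deletion was analysed here. The labels used here do not state how the cells were grown, the rest of each genotype, or which arrays shared a culture. The p-values therefore measure the spread between arrays, which may be technical, and fewer cells of a kind and less RNA per cell cannot be told apart.

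As background, Rpd3 removes acetyl groups from lysines of the histone tails, and in yeast it works in a large and a small complex that share the core subunits Rpd3, Sin3 and Ume1. The large complex, with Sap30, Sds3, Pho23 and Dep1, is brought to promoters by DNA-binding proteins such as Ume6, which represses meiotic and metabolic genes. The small complex, with Rco1 and Eaf3, acts over transcribed gene bodies and restrains transcription from within genes. Eaf3 also belongs to the NuA4 histone acetyltransferase complex.

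Across the series, array signals correlated at 0.949 to 0.988 within a group and at 0.87 to 0.97 between groups. The arrays had been sampled on 8 days, called A to H here, of which A to D formed an earlier and E to H a later period. Wild type shared only day B with other groups, namely with the second arrays of the rpd3 deletion, the H3 tail deletion and the H3 double mutant. Only wild type had arrays in both periods, with array 3 as its later one. A block for period therefore rests on the difference of that array from the other wild-type arrays. The H4 lysine substitution and its double mutant were all sampled on day E, and the H3 tail deletion and its double mutant were sampled side by side on days A and B. The run headers of 3 arrays named a strain other than their label, namely the second arrays of the H3 tail deletion, the H4 tail deletion and the H3 double mutant. For wild type, the run header of array 3 named an RNA amplification kit. The ratio of the 3' to the 5' probe set of actin, a measure of RNA integrity, was 1.37 to 1.41 in wild type, 1.66 to 1.68 in the rpd3 deletion and 1.45 to 1.85 in the H3 tail deletion.

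A signal below 140.2, the 25th percentile of all signals, was treated as being at that floor, and a group with all arrays there gives only a bound. All 10 genes passed the filter of 2 arrays above the floor. SIN3, SAP30, PHO23, DEP1, UME6 and EAF3 were above it on all 18 arrays, RCO1 on 13, RPD3 on 12, SDS3 on 11 and UME1 on 6. A difference was called at a limma adjusted p below 0.05 over all 7851 probe sets tested.

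**Figure D1:**
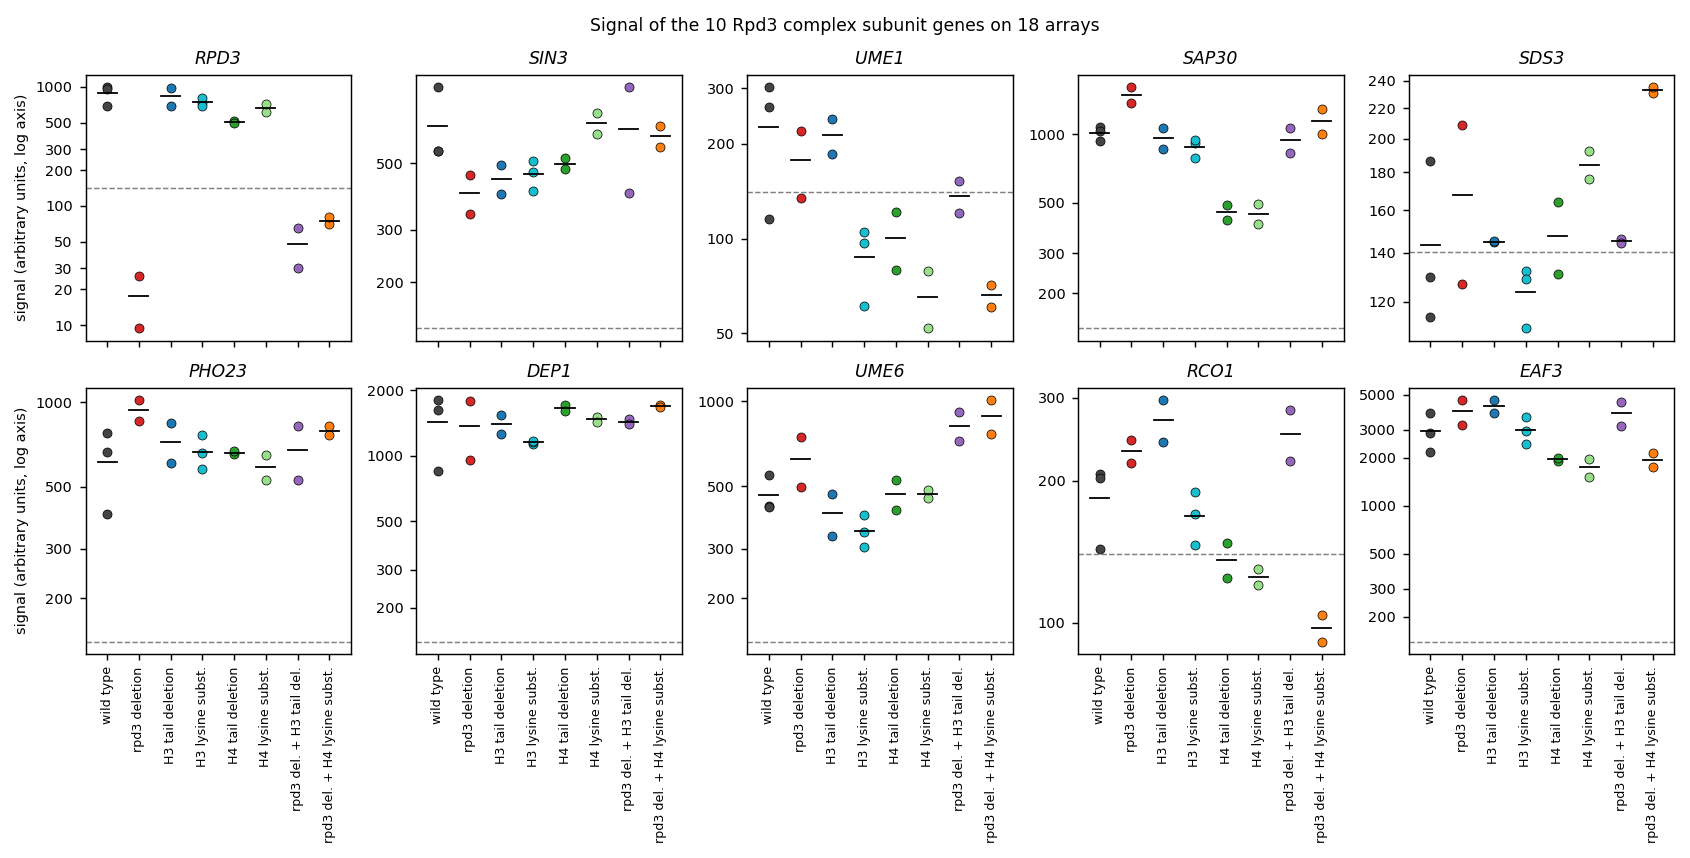
Signal of the 10 Rpd3 complex subunit genes on each of the 18 arrays (vertical axis, arbitrary units, log scale), with the 8 groups along the horizontal axis, 1 point per array and a line at the group mean. RPD3 is below the floor of 140.2 on the 6 arrays of the RPD3 deletions, and SAP30 is lowest on the 4 arrays of the H4 tail deletion and H4 lysine substitution.

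RPD3 itself, the catalytic subunit, checks the labels. Its signal was 1001, 959 and 689.7 in wild type, and 25.8 and 9.4 after deletion of the gene. The H3 double mutant had 30.2 and 65 and the H4 double mutant 70.1 and 80.7. All 6 arrays of strains labelled as lacking RPD3 were under the floor, which puts each of these groups at least 6.22-fold below wild type (adjusted p = 1.02e-05, 3.65e-06 and 1.27e-05 in the order given). Among strains with RPD3 the signal was 694 and 974.6 in the H3 tail deletion, 728, 799 and 685 in the H3 lysine substitution, 519 and 494 in the H4 tail deletion and 608 and 719.7 in the H4 lysine substitution. Both arrays of the H4 tail deletion lay below all other arrays with an intact gene. RPD3 fell there by 0.78 ± 0.21 (SE) on the log2 scale (adjusted p = 0.0138). With a block for sampling day the log2 difference was again -0.78 (adjusted p = 0.202), and without the arrays whose headers name another strain it was -0.75 (adjusted p = 0.0707). Without the first H4 tail deletion array it was -0.82 (adjusted p = 0.0577), and without the second -0.75 (adjusted p = 0.0869).

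A test for any difference among the 8 groups called 6 of the 10 genes, RPD3, SAP30, SDS3, UME6, RCO1 and EAF3, against 53.8% of all probe sets tested. RPD3 is deleted in some of these groups, so its call follows from the genotype. Against wild type, 11 of the 70 differences were called, and 7 of 63 with RPD3 left out. The rpd3 deletion had 1 called gene, RPD3, where 15.4% of all probe sets were called. The H3 tail deletion had 1, RCO1 (13.6% of all), and the H3 lysine substitution had 1, UME1 (25.5%). The H4 tail deletion had 2, RPD3 and SAP30 (27.3%), and the H4 lysine substitution had 1, SAP30 (25.1%). The H3 double mutant had 2, RPD3 and UME6 (23.6%), and the H4 double mutant had 3, RPD3, SDS3 and UME6 (24.5%). With RPD3 left out, 0 of 9 genes were called in the rpd3 deletion, 1 in the H3 and 2 in the H4 double mutant. Shares of 1 to 3 genes in 10 lie near or below these backgrounds, so the counts do not set the subunit genes apart from the rest of the genome. The counts against wild type rest partly on array 3 of that group. Without it, 2 genes were called in the rpd3 deletion (13.2% of all probe sets), 0 in the H3 tail deletion (13.4%), 1 in the H3 lysine substitution (29.6%), 5 in the H4 tail deletion (31.6%), 5 in the H4 lysine substitution (31.5%), 2 in the H3 double mutant (26.2%) and 6 in the H4 double mutant (29%). RPD3, UME1, SAP30, RCO1 and EAF3 were then called lower in both H4 single mutants. Without array 3, wild type has arrays of the earlier period only. For the lysine substitutions and the H4 double mutant, all from the later period, period and genotype then cannot be told apart. The H4 tail deletion is from the earlier period.

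**Figure D2:**
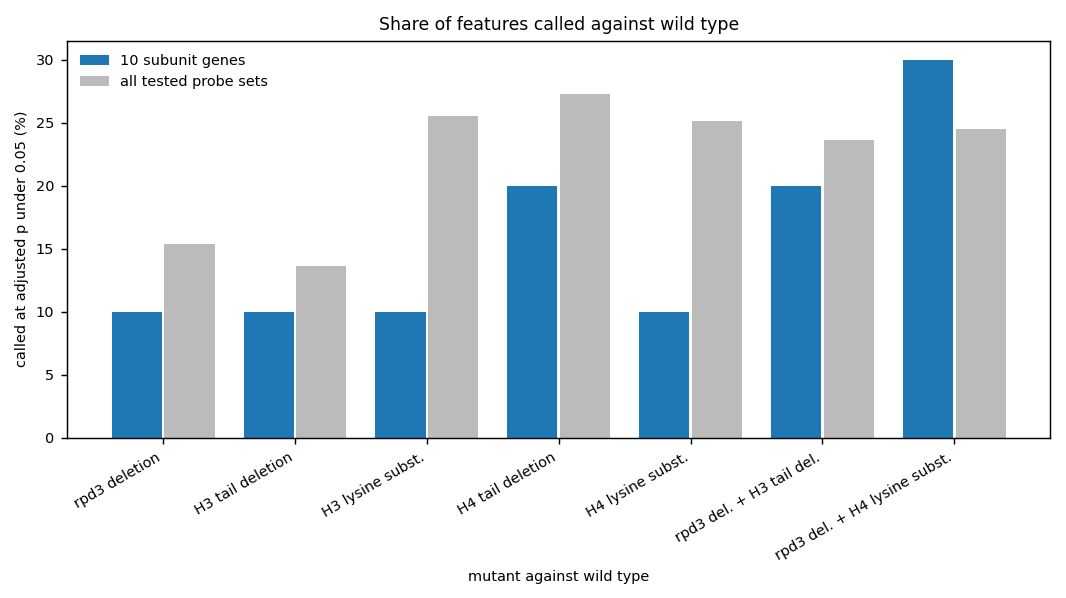
Percent of features with a called difference from wild type (vertical axis) in each of the 7 mutants, for the 10 subunit genes and for all 7851 probe sets tested. The share among the 10 genes is 10 to 30%, and the share of all probe sets is 13.6 to 27.3%. RPD3 is counted among the 10 also in the strains that lack it.

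The median log2 difference of the 10 genes from wild type was 0.25 in the rpd3 deletion, where that of all probe sets was 0.01. It was -0.36 in the H4 tail deletion (all probe sets, -0.05), -0.22 in the H3 lysine substitution (-0.08) and -0.20 in the H4 lysine substitution (-0.07). In the H3 tail deletion and both double mutants it lay between -0.08 and 0.04. With RPD3 left out, the median of the other 9 genes was 0.35 in the rpd3 deletion, -0.34 in the H4 tail deletion, -0.20 in the H3 lysine substitution and -0.02 in the H4 lysine substitution.

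**Figure D3:**
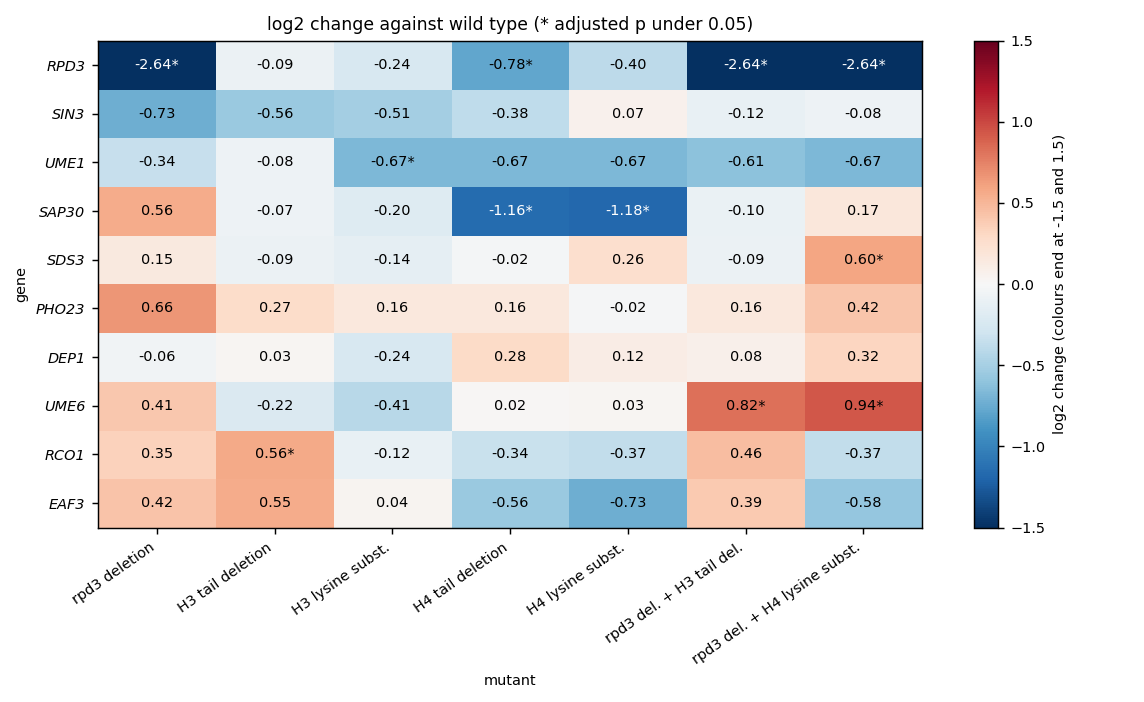
Log2 difference from wild type (colour scale) of the 10 subunit genes in each of the 7 mutants, with called differences (adjusted p below 0.05) marked. The marks sit on RPD3 in the 3 groups lacking it and in the H4 tail deletion, on SAP30 in both H4 mutants with RPD3, on UME6 in both double mutants, on RCO1 in the H3 tail deletion, on UME1 in the H3 lysine substitution and on SDS3 in the H4 double mutant.

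Of the core subunits, SIN3 encodes the scaffold on which both complexes assemble. Its signal was 904, 553 and 552 in wild type and 456 and 338 in the rpd3 deletion. These groups did not overlap, but the first wild-type array stood well above the others. The log2 difference of -0.73 ± 0.32 was not called (adjusted p = 0.152). The H3 double mutant spanned 399 and 904, nearly the whole range of the gene over the 18 arrays. The remaining groups lay between 394 and 738, and no SIN3 difference was called in any comparison.

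UME1, which encodes a WD-repeat protein of both complexes, was weak. Its signal was 261, 304 and 115 in wild type. The rpd3 deletion had 134 and 220.2, the H3 tail deletion 186 and 239 and the H3 double mutant 121 and 152. In the H3 lysine substitution, both H4 mutants and the H4 double mutant it was between 51.8 and 121 on all arrays, below the floor. UME1 was at least 1.59-fold lower than wild type in the H3 lysine substitution (adjusted p = 0.0457). The same bound had adjusted p values of 0.0674 to 0.0729 in the other 3 groups. UME1 exceeded the floor on 6 of the 10 arrays of the earlier period and on 0 of the 8 of the later one. A block for sampling period sets the H3 lysine substitution against wild-type array 3 alone, which was at the floor as well. With that block, the log2 difference of the H3 lysine substitution could only be 0, and it was not called. Without the first wild-type array it was -0.56 (adjusted p = 0.14), without the second -0.45 (adjusted p = 0.202), and the call was lost in 20 of 28 other settings.

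SAP30, a large-complex subunit that binds Sin3, had the smallest adjusted p of the genes other than RPD3 in the test for any difference (0.000306). Its signal was 929, 1070.1 and 1032 in wild type, on average 1010.4 ± 72.9 (SD, n = 3). The H4 tail deletion had 419 and 489.5, and the H4 lysine substitution had 492 and 401. These 4 arrays lay at 401 to 492, and the other 14 arrays lay at 789 to 1617. SAP30 fell by 1.16 ± 0.20 on the log2 scale in the H4 tail deletion (2.23-fold, adjusted p = 0.000972) and by 1.18 ± 0.20 in the H4 lysine substitution (2.27-fold, adjusted p = 0.00125). The difference between those H4 mutants was 0.03, with a 95% confidence interval of -0.44 to 0.49. In the H4 tail deletion, a block for sampling day left the log2 change at -1.08 with an adjusted p of 0.138. No day block could be fitted for the H4 lysine substitution, whose arrays were all from day E.

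SAP30 had no called difference in the H3 mutants. The H3 tail deletion had signals of 861 and 1067, and the H3 lysine substitution had 789, 914 and 941.5. Set directly against each other, the tail deletion of H4 was 1.08 ± 0.22 lower than that of H3 on the log2 scale (adjusted p = 0.00994). A block for sampling day gave -1.16 (adjusted p = 0.0754), leaving out the second H3 array gave -0.93 (adjusted p = 0.0917) and leaving out the first H4 array gave -0.97 (adjusted p = 0.0654). The lysine substitution of H4 was 0.98 ± 0.20 lower than that of H3 (adjusted p = 0.0077), or 0.84 lower without the second H4 array (adjusted p = 0.0771). These direct comparisons of H4 with H3 mutants, and those of each double mutant with the rpd3 deletion below, were added after the data had been seen.

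Loss of RPD3 went with higher SAP30 on the H4 lysine substitution. The signal of 1288 and 997 in the H4 double mutant stood against 492 and 401 in the H4 lysine substitution, with all 4 arrays from the same day. SAP30 rose by 1.35 ± 0.22 on the log2 scale (2.55-fold, adjusted p = 0.00582). Without the second H4 lysine substitution array the change was 1.20 (adjusted p = 0.0623), and without the first double mutant array it was 1.17 (adjusted p = 0.0693). In the comparison of the H4 double mutant with its H4 parent, 2 of the 10 genes were called, RPD3 and SAP30, against 3.41% of all probe sets. With RPD3 left out, as the double mutant lacks it, 1 of 9 genes was called. The signal of the H4 double mutant, 1142 ± 206 (SD, n = 2), overlapped that of wild type.

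In otherwise wild-type cells the rpd3 deletion gave SAP30 signals of 1367 and 1617, above all 3 wild-type arrays, with a log2 difference of 0.56 ± 0.20 that was not called (adjusted p = 0.0751). Between wild type and the rpd3 deletion sampled on day B, the difference was 0.80. On the H3 tail deletion, loss of RPD3 gave 1063 and 829.5 against 861 and 1067, with differences of 0.30 within day A and -0.36 within day B. The interaction, which asks whether the effect of losing RPD3 differed with the histone mutation, was 0.79 ± 0.30 for the H4 lysine substitution (adjusted p = 0.175) and -0.59 for the H3 tail deletion (adjusted p = 0.252). Neither was called.

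**Figure D4:**
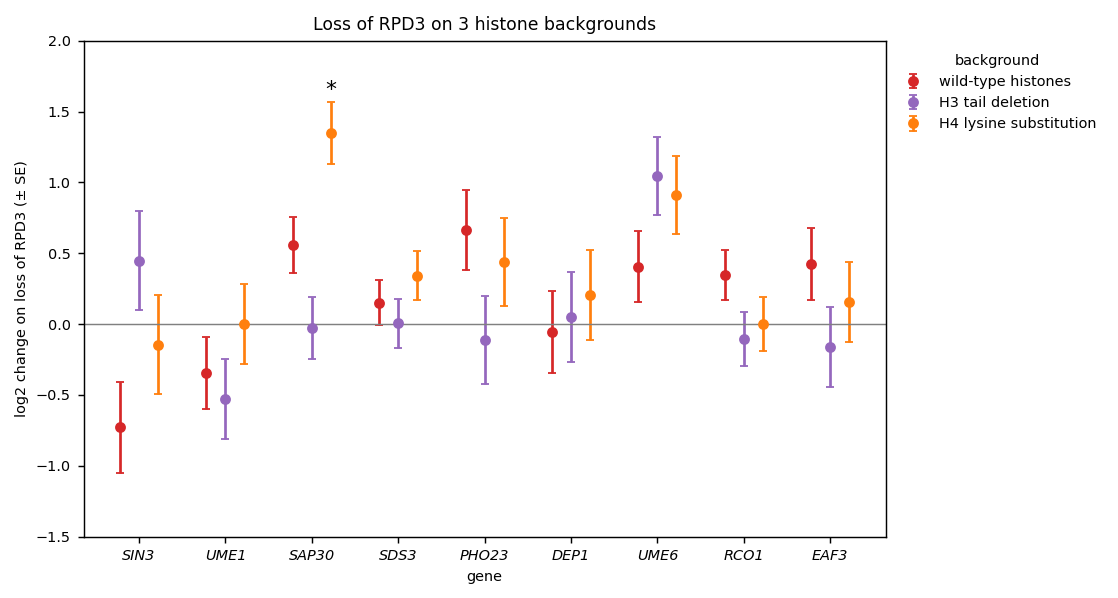
Log2 difference between strains without and with RPD3 for the 9 subunit genes other than RPD3 on 3 backgrounds: wild-type histones, the H3 tail deletion and the H4 lysine substitution. Points are differences and bars are limma standard errors. The asterisk marks an adjusted p below 0.05. SAP30 is at 0.56, -0.03 and 1.35, and UME6 at 0.41, 1.05 and 0.91, in that order.

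SDS3 encodes a large-complex subunit needed for the integrity and activity of the complex. Its signal lay close to the floor, at 130 and 114 (below it) and 186 in wild type. It was 231 and 236 in the H4 double mutant, above all other 16 arrays. SDS3 rose there by 0.60 ± 0.16 on the log2 scale (adjusted p = 0.0151). The call was lost with a floor at the 10th percentile, at 0.73 (adjusted p = 0.0637). It was also lost with a pseudocount of 50 in place of the floor (0.57, adjusted p = 0.0665) and under quantile normalisation (0.52, adjusted p = 0.0574). With period as a block the difference was 0.32 (adjusted p = 0.324), and without the second wild-type array or either double mutant array it was 0.53, 0.61 or 0.58 (adjusted p = 0.0553, 0.0803 and 0.0837). The H4 lysine substitution from the same day had 192.5 and 176, and the double mutant was not called against it. All the remaining arrays lay between 110.4 and 209.

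PHO23 encodes a PHD-finger protein of the ING family, and DEP1 another large-complex subunit. Neither had a called difference in any comparison. PHO23 was 666, 778 and 399.9 in wild type and 1022 and 860.3 in the rpd3 deletion, which did not overlap (log2 difference 0.66 ± 0.28, adjusted p = 0.143). DEP1 spread as widely within groups as between them, with 851, 1633 and 1812 in wild type and 1782 and 959.8 in the rpd3 deletion. Its difference of -0.06 had a 95% confidence interval of -0.68 to 0.57.

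UME6, the DNA-binding repressor that recruits the large complex, was higher in both double mutants. Its signal was 546, 424 and 421 in wild type. It was 725 and 915 in the H3 double mutant and 1014 and 764 in the H4 double mutant. These 4 arrays stood above all 12 arrays with intact RPD3, which ran from 304 to 546. UME6 rose against wild type by 0.82 ± 0.25 on the log2 scale in the H3 double mutant (adjusted p = 0.0309) and by 0.94 ± 0.25 in the H4 double mutant (adjusted p = 0.0165). In the rpd3 deletion alone it was 748 and 497, with a difference of 0.41 ± 0.25 (adjusted p = 0.329). The second of these arrays lay within the range of wild type.

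Both double mutants also had higher UME6 than their histone parents, without a call. The difference was 1.05 ± 0.28 from the H3 tail deletion (adjusted p = 0.0893), made up of 0.63 within day A and 1.47 within day B. From the H4 lysine substitution, within day E, it was 0.91 ± 0.28 (adjusted p = 0.0881). RPD3 was the 1 gene of 10 called between the H3 double mutant and its parent, against 1.34% of all probe sets. That double mutant lacks RPD3, and 0 of the other 9 genes were called. The interactions for UME6 were 0.64 (adjusted p = 0.335) and 0.50 (adjusted p = 0.537). Neither interaction was called for any of the 10 genes, against 5.18% of all probe sets for the H3 tail deletion and 3.16% for the H4 lysine substitution. At an unadjusted p below 0.05, limma picked 1 gene in each, SIN3 and SAP30. The share of all probe sets at that unadjusted threshold was not taken.

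The UME6 call in the H3 double mutant did not hold under several settings. Without the second array of that strain, and without the other arrays whose headers name another strain, the log2 difference was 0.66 (adjusted p = 0.182). A block for sampling day gave 0.45 (adjusted p = 0.44), and the actin ratio as a covariate gave 0.73 (adjusted p = 0.109). Median centring gave 0.62 (adjusted p = 0.102), and leaving out wild-type array 2 or 3 gave 0.77 or 0.76 (adjusted p = 0.0825 and 0.062). In the H4 double mutant, leaving out the first array gave 0.73 (adjusted p = 0.17), and leaving out the second wild-type array gave 0.88 (adjusted p = 0.0508). A block for period gave 1.07 (adjusted p = 0.0745).

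RCO1 and EAF3, the subunits that set the small complex apart, had the lowest signals in the H4 mutants. RCO1, a PHD-finger protein, was 206, 203 and 143 in wild type and 242 and 297 in the H3 tail deletion, where it rose by 0.56 ± 0.17 on the log2 scale (adjusted p = 0.0471). That call was lost in 25 of 29 other settings. RCO1 was 124 and 148 in the H4 tail deletion, 130.3 and 120 in the H4 lysine substitution and 104 and 91.2 in the H4 double mutant. Only 1 of these 6 arrays was above the floor.

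EAF3, a chromodomain protein that recognises methylated histone H3, had a signal of 2851, 3844 and 2191 in wild type. It was 1922 and 1992 in the H4 tail deletion, 1528 and 1973 in the H4 lysine substitution and 1747 and 2142 in the H4 double mutant. All 6 were below all 3 wild-type arrays. None of the 3 differences was called against wild type, with log2 values of -0.56 ± 0.26, -0.73 ± 0.26 and -0.58 and adjusted p values of 0.123, 0.0508 and 0.119. Without the third wild-type array, all 3 were called, at -0.76 (adjusted p = 0.0381), -0.93 (adjusted p = 0.0151) and -0.78. Wild type then has no later array, whereas the H4 lysine substitution and the H4 double mutant are later only. Over all alternative settings the log2 differences ran from -0.76 to -0.35 in the H4 tail deletion. They ran from -0.93 to -0.34 in the H4 lysine substitution and from -0.78 to -0.18 in the H4 double mutant.

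Against other mutants the small-complex genes did differ. Of the 10 genes, 3 were called between the H4 and the H3 tail deletion, SAP30, RCO1 and EAF3, all lower in the H4 mutant, against 10.4% of all probe sets. RCO1 was 0.90 ± 0.19 lower on the log2 scale (adjusted p = 0.0126) and EAF3 1.11 ± 0.28 lower (adjusted p = 0.0251). With a block for sampling day neither was called, at -0.92 (adjusted p = 0.0528) and -1.18 (adjusted p = 0.0938), and under median centring EAF3 was at -0.88 (adjusted p = 0.0616). Leaving out any 1 of the 4 arrays ended the EAF3 call (adjusted p = 0.0916 to 0.118), and leaving out the second H3 array or either H4 array ended the RCO1 call (adjusted p = 0.0644 to 0.109). Without the second array of each, whose headers each name the strain of the other, the comparison rests on 1 array a group, and the log2 differences of SAP30, RCO1 and EAF3 were -1.04, -0.79 and -1.27 (adjusted p = 0.118, 0.193 and 0.203). Between the lysine substitutions, 1 gene was called, SAP30, against 11.9% of all probe sets, and EAF3 was 0.78 lower in the H4 mutant without a call (adjusted p = 0.0654).

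Between the H4 double mutant and the rpd3 deletion, 2 genes were called, RCO1 and EAF3, against 17.2% of all probe sets. RCO1 was at least 1.65-fold lower in the double mutant (adjusted p = 0.0232). EAF3 was 1.00 ± 0.28 lower on the log2 scale (adjusted p = 0.0289). Period and genotype cannot be told apart for these genes, as only wild type had arrays from both periods. The median EAF3 signal was 3540.1 on the 10 earlier and 2167 on the 8 later arrays, and RCO1 was above the floor on 9 earlier and 4 later arrays. A block for period rests on wild-type array 3, which differed from the mean of the other wild-type arrays by -0.516 for RCO1 and -0.595 for EAF3. It cannot tell the period from that array. With this block the log2 differences of the double mutant from the rpd3 deletion were -0.20 for RCO1 and -0.41 for EAF3, and neither was called. Without the second rpd3 deletion array they were -0.64 and -0.74 (adjusted p = 0.163 and 0.239). The H4 tail deletion and the H3 tail deletion were both from the earlier period.

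Between the H3 double mutant and the rpd3 deletion, 0 of the 10 genes were called by limma, against 7.22% of all probe sets, with 1 at an unadjusted p below 0.05. The tail deletion and the lysine substitution of the same histone were also not told apart by these genes. For H3, 0 of 10 were called against 0.395% of all probe sets, and 2 had an unadjusted p below 0.05. For H4, 0 were called against 5.45%, and 0 had an unadjusted p below 0.05. The shares of all probe sets given here are for the adjusted threshold only, and none was taken for the unadjusted one.

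Other subunits and partners of Rpd3 also changed in single genes. Of 8 other subunits, all tested, RXT3 rose in the rpd3 deletion by 1.18 ± 0.27 on the log2 scale (adjusted p = 0.00932). RXT3 also rose in the H3 lysine substitution, by 0.71, while RXT2 and TOD6 fell by 0.57 and 1.01. RXT2 and TOD6 fell in the H4 tail deletion as well, by 0.82 and 0.98, and TOD6 fell by 1.12 in the H4 lysine substitution. RXT2 and RXT3 belong to the large complex, and TOD6 encodes a DNA-binding repressor of ribosome biogenesis genes. CTI6, ASH1, DOT6, SNT2 and ECM5 had no called difference from wild type. The H3 tail deletion and both double mutants had no call among the 8, where 13.6%, 23.6% and 24.5% of all probe sets were called. That share was 15.4% in the rpd3 deletion and 25.5% in the H3 lysine substitution. For the H4 tail deletion and the H4 lysine substitution the share was 27.3% and 25.1%.

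Of 11 partner genes, 10 were tested, and SET2 did not pass the filter. RIM11, a kinase that acts on Ume6 and Ime1, rose in the rpd3 deletion by 0.90 ± 0.27 (adjusted p = 0.034). It also rose in the H3 tail deletion (0.96), the H3 lysine substitution (1.06) and the H3 double mutant (0.92). IME1, the meiotic activator that binds Ume6, fell in the rpd3 deletion by 1.11 ± 0.33 (adjusted p = 0.0388), in the H4 lysine substitution by 1.23 and in the H4 double mutant by 1.20. STB1, a Sin3-binding protein, rose in the H3 and H4 lysine substitutions (0.69 and 0.76) and in the H3 and H4 double mutants (0.80 and 1.06). OPI1, a repressor of phospholipid synthesis genes, fell in the H3 lysine substitution (-0.57) and the H4 tail deletion (-0.82). ITC1, a subunit of the Isw2 remodelling complex, fell in the H4 lysine substitution (-0.94). CHD1, WHI5, XBP1, MCK1 and ISW2 had no called difference from wild type. Across the mutants, 13.6 to 27.3% of all probe sets were called, so these calls do not set the partners apart from the genome.

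For reference, 10 genes known to be repressed by Ume6 and Rpd3 were read by 11 probe sets, all tested. Of these, 8 were higher in the rpd3 deletion (11.2% of all probe sets were called higher), 8 in the H3 double mutant (15.4%) and 6 in the H4 double mutant (11.6%), and none was lower in these groups. In the H3 tail deletion 2 were higher (10.7% of all), and in the H3 lysine substitution 2 were higher (11.8%) and 1, CAR2, was lower. In the H4 tail deletion 2 were higher (12.3%) and in the H4 lysine substitution 3 (8.69%). These counts are against wild type. Against its histone parent, the H3 double mutant had 1 of the 11 called, higher (1.34% of all probe sets in any direction). The H4 double mutant had 0 called against its parent (3.41%). Against the rpd3 deletion, the H4 double mutant had 1 higher and 3 lower (17.2%), and the H3 double mutant had 0 called (7.22%). INO1, the inositol synthesis enzyme, rose by 3.50 ± 0.35 on the log2 scale in the rpd3 deletion (adjusted p = 4.32e-05). UME6 was not called in that group and was called in both double mutants. Set directly against the rpd3 deletion, UME6 was 0.42 higher in the H3 double mutant (adjusted p = 0.386). The H4 double mutant was 0.53 higher (adjusted p = 0.191), and neither difference was called.

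The gene most like each subunit was the tested probe set for 1 gene whose 8 group means correlated best with those of the subunit. These are descriptions over 8 means from shared arrays, picked as the best of 6080 probe sets. For SAP30 this was YMC1, a mitochondrial carrier (Pearson's r = 0.976), with signals of 872.5 to 1230 in the H4 tail deletion and H4 lysine substitution and of 2189 to 3989 in the other groups. For UME6 it was LEU2, an enzyme of leucine synthesis (r = 0.977). LEU2 was 3080 to 4992 on the 6 arrays lacking RPD3 and 651 to 1954 on the other 12. The labels do not state the genotype at LEU2, so a genotype difference and a change in its expression cannot be told apart. For EAF3 it was HPA3 (r = 0.982), for RCO1 YDR131C (r = 0.984) and for SDS3 RPL37B, a ribosomal protein (r = 0.945).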

How the data were processed

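Total RNA of 8 yeast strains was measured on 18 one-colour arrays. The authors' deposited table gives linear-scale intensity values, 1 column an array. Their 2% trimmed means were nearly equal (1501 to 1502, with medians of 387 to 545), so the values show a scaling by the authors. The probe-level summary, its software and the build are not stated in the labels or headers. Per the file headers, the run settings (unit other than a measurement) gave strain names and run days. Sampling days came from the labels. Of 9335 probe sets, 60 were controls, 6504 named 1 gene (all matched by gene identifier to the R64 table), 328 several and 2443 none.

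Rescaling to 1 trimmed mean changed signals by at most 0.03%. Lower values were raised to the pooled 25th percentile before log2 was taken. The 7851 probe sets that exceeded it on 2 or more arrays entered 1 fit in limma 3.58.1 (R 4.3.3). Every group had its own mean, which left 10 residual degrees of freedom, and variances were moderated by empirical Bayes with a trend (3.76 prior degrees of freedom). Two-sided p-values were adjusted by Benjamini and Hochberg's method separately for each contrast, with a threshold of 0.05. The script was tested on simulated data. There were 13 contrasts and an F-test against wild type. Errors of log2 differences are limma's standard errors. A fold against a group at the floor is a bound, written as at least that fold. The number of arrays limits the precision.

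The members and lists were chosen with earlier results of these data known. The genes named were all 10 members, the other subunits, the partners and the most similar gene of each member called by the F-test other than RPD3. Of the 10 repressed genes, INO1 and CAR2 were named after their values were seen. The H4 against H3 mutants, the double mutants against the rpd3 deletion and the actin ratio covariate were added after the data had been seen.

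Replicate numbers mark shared days for the rpd3 deletion, the H3 tail deletion and its double mutant. Differences between replicates 1 and 2 correlated at 0.342 between the rpd3 deletion and the H3 tail deletion, 0.283 between the H3 tail deletion and its double mutant and -0.047 between the rpd3 deletion and that double mutant. Wild-type numbers share no day with them. No sequence or motif was analysed here.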

Additional observations from a re-analysis of the deposited data

How the results depend on the processing

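Of the 14 called differences of the 10 genes in the 13 contrasts, 6 kept their call under every alternative run. Another 8 lost it under at least 1 and 0 reversed, while 15 others were called under at least 1. Apart from SAP30 in the H4 lysine substitution, the kept calls were all RPD3 in strains lacking it, an outcome the genotype fixes. No day block could be fitted for that SAP30 difference. The RCO1 call in the H3 tail deletion gave way (1 to 0 genes) under quantile normalisation, median centring, a floor at the 10th percentile, no filter on low values, a pseudocount of 50, no variance trend, the day, period and replicate blocks, the actin covariate and without the 3 arrays whose headers name another strain. The UME1 call in the H3 lysine substitution gave way (1 to 0) under no filter, no variance trend, the period block, the actin covariate and without those 3 arrays. Called probe sets went from 1071 to 290 with the day block and 455 without those 3 arrays in the H3 tail deletion, and from 2004 to 677 with the period block in the H3 lysine substitution. In the H4 tail deletion 2 genes became 0 with the day block, 5 with the period block and 1 without those 3 arrays, while the called probe sets went from 2145 to 403, 2480 and 1120. In the H4 lysine substitution 1 became 2 with the lower floor or the pseudocount, and in the rpd3 deletion 1 became 2 with the period block. In the H3 double mutant 2 became 1 under quantile normalisation, the actin covariate and without those 3 arrays, and in the H4 double mutant 3 became 1 with the period block, while the called probe sets went from 1925 to 621. The day block could not be fitted against wild type for the H4 double mutant and both lysine substitutions, nor for the tail against lysine contrasts and the F-test. The period block rests on wild-type array 3, the only later array of that group. With the replicate block, 5 genes were called in the H4 tail deletion, 4 in the H4 lysine substitution and 6 in the H4 double mutant, with 2368, 2337 and 2224 called probe sets, where the numbers are not known to pair samples. Where they mark shared days, the block moved no call of the H3 double mutant against the H3 tail deletion (UME6 1.05, adjusted p = 0.0903). Leaving out each array in turn gave 1 to 2 genes in the rpd3 deletion, 0 to 1 in each H3 single mutant, 1 to 5 in each H4 single mutant, 1 to 3 in the H3 double mutant and 1 to 6 in the H4 double mutant. Against their parents it gave 1 in the H3 and 1 to 2 in the H4 double mutant. It gave 0 to 1 for the H3 tail against lysine mutant and for the H3 interaction, 0 for the H4 counterparts and 5 to 7 for the F-test. Median centring moved the median of all probe sets from 0.01 to -0.14 in the rpd3 deletion, from 0.00 to -0.15 in the H3 tail deletion, from 0.03 to -0.18 in the H3 double mutant and from -0.07 to 0.08 in the H4 lysine substitution. The causes were not tested. UME1, SDS3 and RCO1 lay near the floor, which limits what can be read from them.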

Other observations

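Most of the subunit genes had their lowest wild-type signal on the third wild-type array, whose header names the RNA amplification kit. This held for 7 of the 10 genes, against 47.1% of all probe sets tested. The median log2 difference of that array from the mean of the other wild-type arrays was -0.43 over the 10 genes and -0.12 over all probe sets. PHO23 showed it with 666 and 778 against 399.9, and UME1 with 261 and 304 against 115.

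The small-complex genes RCO1 and EAF3 followed each other over the group means. Pearson's r was 0.961 over the 8 group means and 0.687 over the deviations of the 18 arrays from their group means, which share libraries and sampling days. Over those deviations RCO1 had a higher r with the core subunit genes RPD3 (0.737) and UME1 (0.709). The tie within groups was therefore not particular to the small-complex genes. RPD3 and SAP30 had r = 0.873 over the 5 groups with an intact RPD3, and r = 0.022 over deviations within groups. UME1 and SDS3, both near the floor, had r = -0.836 within groups. These values describe the arrays and carry no test.

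Among the genes other than RPD3, SIN3 differed most between the rpd3 deletion and wild type on the day they shared, day B, by -1.42 on the log2 scale from 1 array each. On that day UME6 differed by -0.14 and EAF3 by 0.70. The first wild-type array, from day B, held the highest SIN3 signal of the wild type and the lowest DEP1 signal, 851 against 1633 and 1812.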
